A study of Macaca mulatta with 9 samples.

Results

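Collagen chains and the genes that process collagen were followed in the prostates of adult rhesus monkeys (Macaca mulatta) whose mothers had received TCDD. The 10 genes were 5 collagen chains (COL1A1, COL1A2, COL5A2, COL6A2 and COL22A1), 4 genes of collagen processing and turnover (P4HA2, SERPINH1, ADAMTS2 and MMP2) and the hyaluronan synthase gene HAS2. They were found by their symbols in the probe descriptions of the authors' deposited table, which named 1282 genes. Each symbol matched 1 probe, so 10 of the 20217 probes on the array were described, and all 10 were among the 15160 tested. The description of 9 of these probes named a human transcript, and that of COL5A2 a macaque one.

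Fibrillar collagen I is a triple helix of 2 chains encoded by COL1A1 and 1 encoded by COL1A2, and collagen V, which holds the COL5A2 chain, is built into the same fibrils. Collagen VI, which holds the COL6A2 chain, forms beaded filaments around cells, and collagen XXII is a minor chain known from tissue junctions. New chains are hydroxylated on proline (P4HA2) and folded with a chaperone (SERPINH1) in the endoplasmic reticulum, lose their amino-terminal propeptide outside the cell (ADAMTS2) and are later degraded, in part by gelatinases (MMP2). In the prostate, collagens are made mainly by the stroma of fibroblasts and smooth muscle around the glands.

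The dams received vehicle (0 ng/kg), 30 or 300 ng/kg TCDD, a persistent dioxin, under the skin on gestation day 20. Maintenance injections of 5% of the first dose followed every 30 days and ended on day 90 after delivery, so that the offspring were exposed in the womb and through milk. Each group held 3 offspring, necropsied 7 years after the exposure, and each gave 1 array of total prostate RNA. The design text describes the offspring as kept to sexual maturity, and names histology and quantitative PCR beside the arrays. The secretory prostate genes KLK3, MSMB and TGM4 were well above background on all 9 arrays. In bulk tissue, fewer cells of a type and less RNA per cell cannot be told apart.

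Levels are log2 values of the processed signal divided by its array's own 75th percentile, so a value of 0 is the level of that percentile. That percentile lay between 514 and 1193 intensity units in the vehicle group. It lay between 343 and 1356 in the low dose group and between 1258 and 2374 in the high dose group. The arrays lay on 3 slides, and the slides did not hold the groups evenly. Slide 1 held 2 vehicle arrays, slide 2 held 1 vehicle array with 2 of 30 ng/kg, and slide 3 held 1 array of 30 ng/kg with all 3 of 300 ng/kg. Vehicle and 300 ng/kg arrays never shared a slide, so no value within a slide exists for that comparison. The number of arrays limits the precision, and the p-values measure the spread between these animals.

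Most of the 10 genes had their highest mean at 300 ng/kg. This held for 7 genes, namely COL1A1, COL1A2, all 4 processing genes and HAS2, while COL5A2 and COL22A1 were highest at 30 ng/kg and COL6A2 in the vehicle group. HAS2 entered the test only through the 300 ng/kg group. No gene passed limma's test with Benjamini-Hochberg adjustment over all 15160 tested probes in any of the 3 comparisons. The adjusted p of the 10 genes ran from 0.946 to 0.997 for 30 ng/kg against vehicle, from 0.216 (HAS2) to 0.870 for 300 ng/kg against vehicle and from 0.160 to 0.719 for 300 against 30 ng/kg. The share of all tested probes with an adjusted p under 0.05 was 0% in each comparison.

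At an unadjusted p under 0.05, 8 of the 10 genes differed between 300 ng/kg and vehicle, 7 higher and 1 lower. One of the 7, HAS2, was well above background on all arrays only at 300 ng/kg and entered the test through that group, so its direction is no support. Without HAS2, 6 of 9 genes were higher and 1 lower. Of all tested probes 15.5% did so, 7.38% higher and 8.17% lower. Among the 1177 tested probes that carry a gene symbol, the share was 76.5%, 35.6% higher and 40.9% lower. That second share is the one to read the genes against, since the authors list only probes that differed between these same arrays (a p no larger than 0.05 over the 3 groups in their analysis of variance, with 1.5-fold or more against vehicle at 1 dose or both). For 30 ng/kg against vehicle, 2 of the 10 genes, COL5A2 and COL22A1, differed at this level, both higher. The share was 5.05% of all tested probes (3.23% higher, 1.83% lower) and 26% of probes with a symbol (16.6% higher, 9.43% lower). For 300 against 30 ng/kg, 6 genes were higher and 2 lower, and without HAS2 5 of 9 were higher and 2 lower. The share was 20.6% of all tested probes (8.12% higher, 12.5% lower) and 79.8% of probes with a symbol (31.1% higher, 48.7% lower). The total of genes that differed was thus near that of other named probes at each dose. Counted by overlap of the 3 animals of each group, 2 genes stood apart between 30 ng/kg and vehicle, both higher (9.38% of all tested probes, 4.93% higher and 4.45% lower, and 26.8% of probes with a symbol). Between 300 ng/kg and vehicle 9 stood apart, 8 higher and 1 lower (22.7%, 11.5% higher and 11.2% lower, and 81.6%). Between the doses 8 did, 6 higher and 2 lower (25.6%, 11.2% higher and 14.4% lower, and 79.6%). Without HAS2, 7 of 9 genes stood higher and 1 lower against vehicle, and 5 higher and 2 lower between the doses. The comparisons share arrays: both against vehicle use the same 3 vehicle animals.

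**Figure D1:**
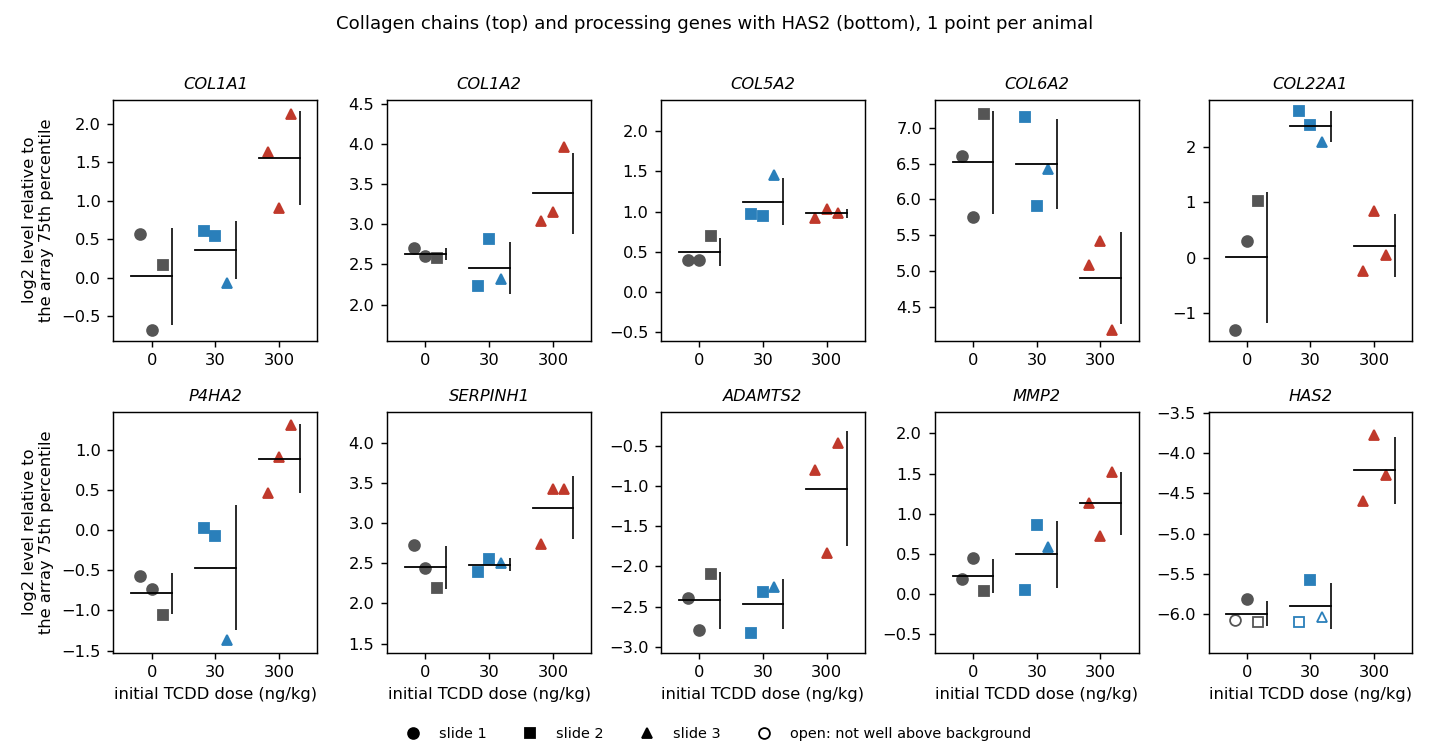
Level of each gene on each array (log2, with the array's 75th percentile at 0) against the initial TCDD dose of the dam in ng/kg, 3 animals per dose. Horizontal lines are group means, vertical lines run 1 SD either side, symbols give the slide and open symbols were not well above background. The 300 ng/kg animals lie above all vehicle animals for COL1A1, COL1A2, COL5A2, the 4 processing genes and HAS2, and below them for COL6A2.

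The chains of collagen I stood higher at 300 ng/kg than in the other groups. COL1A1 (probe A_01_P005353) lay at 0.56, -0.68 and 0.16 in vehicle animals 1, 2 and 3, at 0.61, 0.54 and -0.07 at 30 ng/kg, and at 1.63, 0.91 and 2.13 at 300 ng/kg. Every 300 ng/kg value was above all 6 others, while vehicle and 30 ng/kg overlapped. The difference from vehicle was 1.54 ± 0.41 (log2 ± SE, n = 3 per group; 95% interval 0.62 to 2.46), a fold of 2.91, with an unadjusted p of 0.00442 and an adjusted p of 0.267 (limma). Between 300 and 30 ng/kg it was 1.20 ± 0.41, and 1.63 within slide 3. Between 30 ng/kg and vehicle it was 0.34 ± 0.41, with 0.41 within slide 2.

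COL1A2 (probe A_01_P000646) had vehicle animals close together, at 2.71, 2.61 and 2.57. The 30 ng/kg animals lay at 2.23, 2.82 and 2.32 and those of 300 ng/kg at 3.04, 3.15 and 3.96, so that only the highest dose stood apart. The difference of 300 ng/kg from vehicle was 0.75 ± 0.29 (fold 1.69, unadjusted p 0.0289, limma adjusted p 0.301), and from 30 ng/kg 0.93 ± 0.29, with 1.07 within slide 3. Between 30 ng/kg and vehicle it was -0.17 ± 0.29. With the brightness of the array as a covariate the first difference was 0.43. Without 300 ng/kg replicate 3, the highest animal, it was 0.46.

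One COL1A2 value and one COL6A2 value rest on spots that disagreed. Each probe is spotted 2 times on an array, and on 300 ng/kg replicate 1 the second COL1A2 spot read 6098 intensity units, 1.26 log2 units below the first. The second COL6A2 spot on the same array read 28383 units, 1.02 below its first. The extraction program flagged the local background of both. Spots of other probes around them stood at a median of -1.13 and -0.82 against their own second copies elsewhere on the array, whereas around the other spots of the 10 genes this median ran from -0.26 to 0.24. With spots of flagged background left out, a choice made after seeing the data, COL1A2 stood at 0.91 and COL6A2 at -1.47 for 300 ng/kg against vehicle. Over all tested probes the median difference between the 2 spots was 0.14, beside a median SD between animals of a group of 0.40.

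COL5A2 (probe A_01_P006818), the collagen V chain, stood above vehicle at both doses. The vehicle animals lay at 0.39, 0.40 and 0.70, those of 30 ng/kg at 0.97, 0.94 and 1.46, and those of 300 ng/kg at 0.92, 1.04 and 0.98. All 6 exposed animals were above all 3 vehicle animals, and the doses overlapped. The difference from vehicle was 0.62 ± 0.22 at 30 ng/kg (unadjusted p 0.0196, limma adjusted p 0.946) and 0.48 ± 0.22 at 300 ng/kg (unadjusted p 0.0558, adjusted p 0.329). The 95% interval of the difference between doses, -0.14 ± 0.22, ran from -0.64 to 0.36. The 2 lowest of the 9 animals were the vehicle animals of slide 1. Within slide 2, where a single vehicle array gives no vehicle spread, the 30 ng/kg difference was 0.25. With slide as a block the 300 ng/kg difference turned to -0.23.

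COL22A1 (probe A_01_P005533) was the chain with the high level at the low dose. Vehicle animals lay at -1.30, 0.30 and 1.01, 30 ng/kg animals at 2.65, 2.39 and 2.09, and 300 ng/kg animals at -0.25, 0.84 and 0.05. The 3 animals of 30 ng/kg were above all 6 others, and the 300 ng/kg values lay within the vehicle range. The difference of 30 ng/kg from vehicle was 2.37 ± 0.55 (95% interval 1.13 to 3.61), a fold of 5.17, which ranked 15 of 15160 by p (unadjusted p 0.00189, limma adjusted p 0.946). Within slide 2, where a single vehicle array gives no vehicle spread, it was 1.50. Between 300 and 30 ng/kg the difference was -2.16 ± 0.55 (unadjusted p 0.00336, adjusted p 0.160), with -1.87 within slide 3. For 300 ng/kg against vehicle it was 0.21 ± 0.55, and it changed sign under 2 of 14 other settings (-0.37 with slide as a block, -0.11 with array brightness as a covariate). Without vehicle replicate 1 or 300 ng/kg replicate 2 it was below 0 too, at -0.44 and -0.10.

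COL6A2 (probe A_01_P018515), the collagen VI chain, was the only 1 of the 10 genes lower at 300 ng/kg than in vehicle. It lay at 6.60, 5.75 and 7.19 in vehicle animals, at 7.15, 5.90 and 6.42 at 30 ng/kg and at 5.09, 5.43 and 4.19 at 300 ng/kg. Every 300 ng/kg value was below all 6 others. The difference from vehicle was -1.61 ± 0.48 (95% interval -2.69 to -0.54, unadjusted p 0.00805, limma adjusted p 0.267), and from 30 ng/kg -1.59 ± 0.48, with -1.52 within slide 3. Between 30 ng/kg and vehicle it was -0.02 ± 0.48.

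The COL6A2 probe was among the brightest on the array, and array brightness moved with its value. Its mean level was at percentile 99.5 of tested probes, and all 18 of its spots were read from the scan at lower gain, although none was saturated. Before scaling, its signal ran from 49889 to 116401 intensity units in vehicle and from 42952 to 69421 at 300 ng/kg, ranges that overlap. Within groups, its level correlated with the 75th percentile of the array at -0.68 over 9 arrays, beside a middle range of -0.50 to 0.45 for all tested probes. The 100 probes closest to it in level had a median difference of -0.13. Its difference from vehicle was -0.98 ± 0.47 with array brightness as a covariate, -1.30 with quantile normalization and -1.41 with cyclic loess, and it stayed below 0 in all 14 other settings and with each array left out. What part brightness had in it was not tested further. Of the other genes, 5 spots were read from the scan at lower gain, all at 300 ng/kg. These were the COL1A2 and SERPINH1 spots of replicate 3 and the first SERPINH1 spot of replicate 2.

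**Figure D2:**
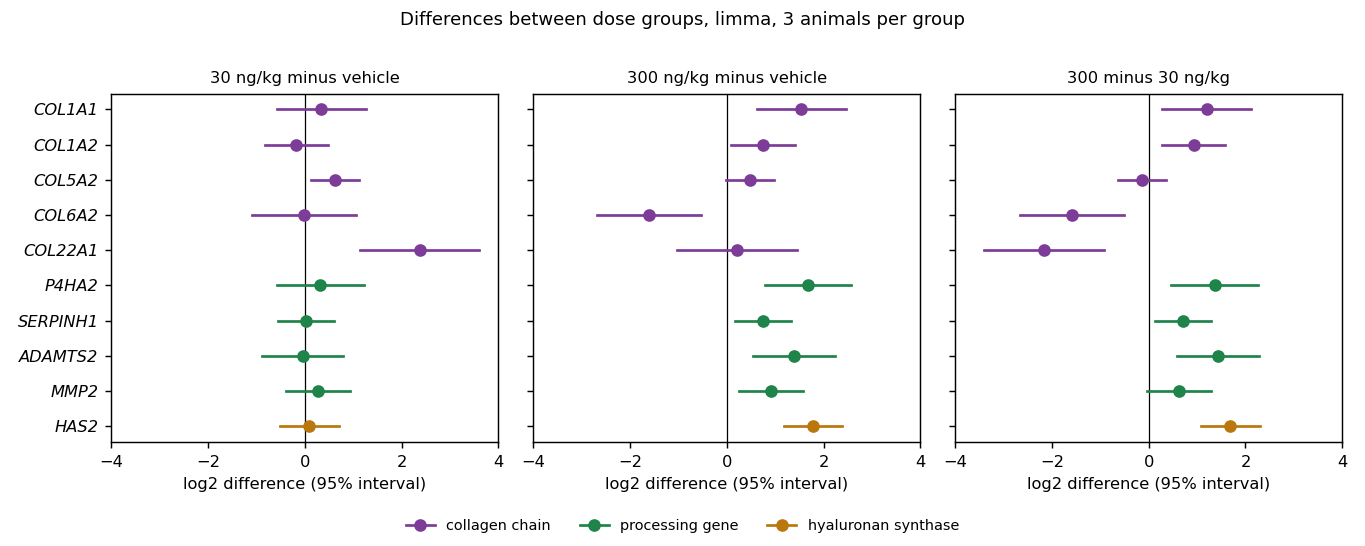
Difference between dose groups for each gene (log2, limma) with its 95% interval, 3 animals per group; colours give collagen chains, processing genes and the hyaluronan synthase. Chains lie on both sides of 0 at 300 ng/kg against vehicle (COL6A2 at -1.61, COL1A1 at 1.54), and all 4 processing genes lie above 0 (0.74 to 1.68). Of processing genes outside these 4, not drawn here, BMP1 stood lower (-2.11 and -1.98 for its 2 probes) and PCOLCE higher (1.17).

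All 4 processing genes had their highest mean at 300 ng/kg. P4HA2 (probe A_01_P003542), a catalytic subunit of the collagen prolyl hydroxylase, lay at -0.57, -0.74 and -1.06 in vehicle animals and at 0.46, 0.91 and 1.31 at 300 ng/kg. At 30 ng/kg, 2 animals lay at 0.03 and -0.07 and the third at -1.37, so that this group held both a value above all vehicle animals and one below them. The difference of 300 ng/kg from vehicle was 1.68 ± 0.40 (fold 3.20, unadjusted p 0.00216, limma adjusted p 0.267), and from 30 ng/kg 1.36 ± 0.40. Both were larger when slides were taken into account: 2.26 within slide 3 for the doses, and 3.30 with slide as a block for 300 ng/kg against vehicle. The 30 ng/kg difference of 0.32 ± 0.40 was 1.04 within slide 2, where a single vehicle array gives no vehicle spread. The lowest animal, 30 ng/kg replicate 3, is the only 30 ng/kg array of slide 3.

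SERPINH1 (probe A_01_P014696), which encodes the collagen chaperone HSP47, lay at 2.72, 2.44 and 2.19 in vehicle animals, at 2.40, 2.55 and 2.51 at 30 ng/kg and at 2.74, 3.42 and 3.43 at 300 ng/kg. The lowest 300 ng/kg animal exceeded the highest vehicle animal only narrowly. The differences were 0.74 ± 0.26 against vehicle (unadjusted p 0.0174, limma adjusted p 0.283) and 0.71 ± 0.26 against 30 ng/kg, with 0.69 within slide 3. At 30 ng/kg the level was 0.03 ± 0.26 from vehicle, with an interval of -0.55 to 0.61.

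ADAMTS2 (probe A_01_P008315), the protease that cuts the amino-terminal propeptide from procollagen I, lay at -2.39, -2.79 and -2.09 in vehicle animals and at -2.83, -2.32 and -2.26 at 30 ng/kg. At 300 ng/kg it lay at -0.80, -1.83 and -0.46, all above the other 6 animals, with replicate 2 closest to them. The difference from vehicle was 1.39 ± 0.37 (fold 2.62, unadjusted p 0.00467, limma adjusted p 0.267) and from 30 ng/kg 1.44 ± 0.37, with 1.23 within slide 3. Without 300 ng/kg replicate 2 it was 1.79 against vehicle, which passed (limma adjusted p 0.0351) beside 271 of all tested probes. With limma's array weights it passed as well, at 1.55 (adjusted p 0.0489), beside 198 of all tested probes. The weight of that array was 0.64, and those of vehicle replicate 3 and 30 ng/kg replicate 2 were lower, at 0.38 and 0.39. Over the other settings the adjusted p reached 0.670.

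MMP2 (probe A_01_P011255), a gelatinase that cleaves denatured collagen and collagen IV, had the smallest separation between doses among the processing genes. Vehicle animals lay at 0.19, 0.44 and 0.03, 30 ng/kg animals at 0.05, 0.86 and 0.58 and 300 ng/kg animals at 1.13, 0.73 and 1.52. The highest dose stood above vehicle without overlap but overlapped with 30 ng/kg. The difference was 0.90 ± 0.29 from vehicle (unadjusted p 0.0129, limma adjusted p 0.274) and 0.63 ± 0.29 from 30 ng/kg (unadjusted p 0.0584), with 0.55 within slide 3. Within groups its level correlated with the 75th percentile of the array at 0.66 over 9 arrays. With that brightness as a covariate the differences were 0.58 and 0.16.

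HAS2 (probe A_01_P002460) encodes an enzyme that extrudes hyaluronan, a matrix sugar polymer that is not collagen. It was well above background on 1 of 3 vehicle arrays, 1 of 3 arrays at 30 ng/kg and all 3 at 300 ng/kg. Its processed signal was 7.63 to 21.2 intensity units in vehicle, 4.01 to 28.3 at 30 ng/kg and 52.0 to 123 at 300 ng/kg. On the log2 scale the 300 ng/kg animals lay at -4.60, -3.78 and -4.27, and the other 6 between the floor of -6.10 and -5.58. The fitted difference was 1.78 from vehicle (limma adjusted p 0.216) and 1.69 from 30 ng/kg. HAS2 passed the filter on dim probes only through the group where it is high, and it was not well above background on 4 of the other 6 arrays, so these values give neither an exact size nor support for a change.

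The size of the HAS2 difference depended on the background correction. With normexp, which models the background and adds an offset of 50 units, it was 0.01 ± 0.61 against vehicle and -0.79 ± 0.61 against 30 ng/kg. Under that correction the median of all tested probes also moved, by -0.22 and -0.49. On 300 ng/kg replicate 2 the 2 HAS2 spots differed by 1.53 log2 units. Without that array the difference from vehicle was 1.56 (limma adjusted p 0.0332), and array weights gave 1.69 (adjusted p 0.0410), with the same limit on the vehicle level. In these settings 271 and 198 of all tested probes passed.

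Within slides 2 and 3, which held more than 1 group, the sign of each difference between their groups was kept for all 10 genes. These arrays are part of the full fit, with 1 vehicle array on slide 2 and 1 array of 30 ng/kg on slide 3. Agreement in sign is thus partly built in and is no support for the differences. Both probes of BMP1, a further collagen gene described below, turned within slide 2 (-0.80 and -0.36). For 30 ng/kg against vehicle within slide 2, COL1A2 stood at -0.05, COL6A2 at -0.66, SERPINH1 at 0.28, ADAMTS2 at -0.48, MMP2 at 0.42 and HAS2 at 0.26. For 300 against 30 ng/kg within slide 3, HAS2 stood at 1.82 and COL5A2 at -0.48. Slide as a block reaches 300 ng/kg against vehicle only through the 30 ng/kg arrays. It gave 2.04 for COL1A1, 1.02 for COL1A2, -2.18 for COL6A2, 3.30 for P4HA2, 0.97 for SERPINH1, 0.75 for ADAMTS2, 0.96 for MMP2 and 2.08 for HAS2. COL5A2 and COL22A1 turned in sign, to -0.23 and -0.37.

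Between 300 and 30 ng/kg, array weights brought 6 of the 10 genes past the threshold (limma adjusted p 0.0193 to 0.0390). These were COL1A2, ADAMTS2, MMP2 and HAS2, higher, and COL6A2 and COL22A1, lower, beside 2951 of all tested probes. Without 300 ng/kg replicate 2, ADAMTS2 passed (1.84, adjusted p 0.0423) beside 155 probes. HAS2 passed there too (1.47, adjusted p 0.0495), and without 30 ng/kg replicate 2 (1.85, adjusted p 0.0304) beside 774 probes, again against arrays mostly not well above background.

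Set side by side, the 4 processing genes had a median difference from vehicle of 1.15 at 300 ng/kg and 0.15 at 30 ng/kg. Medians for the 5 chains were 0.48 and 0.34, and those of all tested probes -0.01 and 0.02. BMP1, also a collagen processing gene, is not among these 4, and its 2 probes stood at -2.11 and -1.98 from vehicle at 300 ng/kg. Of the 6 tested probes of a wider list of collagen maturation, described below, the other 4 stood above vehicle, and the median was 0.96. At 300 ng/kg all 4 processing genes and 3 of 5 chains stood above vehicle without overlap, and 1 chain below. Of probes with a symbol 81.6% do not overlap in this comparison, and of all tested probes 22.7% (11.5% higher, 11.2% lower). Per animal, the median over the processing genes, relative to the vehicle mean, was 1.08, 0.78 and 1.63 at 300 ng/kg and at most 0.37 in the other 6 animals. The same median over the chains was 0.41, 0.54 and 0.49 at 300 ng/kg and 0.59, 0.44 and -0.09 at 30 ng/kg, which overlap. That median runs over chains that went both ways: between 300 and 30 ng/kg, COL1A1 and COL1A2 were higher and COL6A2 and COL22A1 lower. All 4 were without overlap, as were 79.6% of probes with a symbol and 25.6% of all tested probes. With slide as a block the median of the chains at 300 ng/kg was -0.23, the value of COL5A2. No p was computed for these lists, since their genes were chosen with results in view.

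A ratio between genes on the same array does not change when the whole array is divided by a factor, though it can change under quantile or cyclic loess normalization. The log2 ratio of COL1A1 to COL1A2 was -2.14, -3.28 and -2.41 in vehicle animals, -1.62, -2.28 and -2.39 at 30 ng/kg and -1.41, -2.24 and -1.83 at 300 ng/kg. The groups overlapped, and the mean stood 0.79 above vehicle at 300 ng/kg, where the 2 differences from vehicle had been 1.54 and 0.75. Only the shift of such a ratio between groups has a meaning here, since 2 probes of unequal response give its level.

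The 4 processing genes were set against COL1A1 in the same way. The mean log2 ratio of P4HA2 to COL1A1 was -0.81 ± 0.65 in vehicle (SD, n = 3), -0.83 ± 0.40 at 30 ng/kg and -0.67 ± 0.60 at 300 ng/kg. That of ADAMTS2 to COL1A1 was -2.44 ± 0.45, -2.83 ± 0.63 and -2.59 ± 0.16, a shift of -0.15 at 300 ng/kg against vehicle that was -0.46 with normexp. The ratio of SERPINH1 to COL1A1 went from 2.43 ± 0.59 in vehicle to 1.64 ± 0.76 at 300 ng/kg, and that of MMP2 to COL1A1 from 0.21 ± 0.80 to -0.43 ± 0.22. All 4 ratios overlapped between these groups, and the shifts were not tested.

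**Figure D3:**
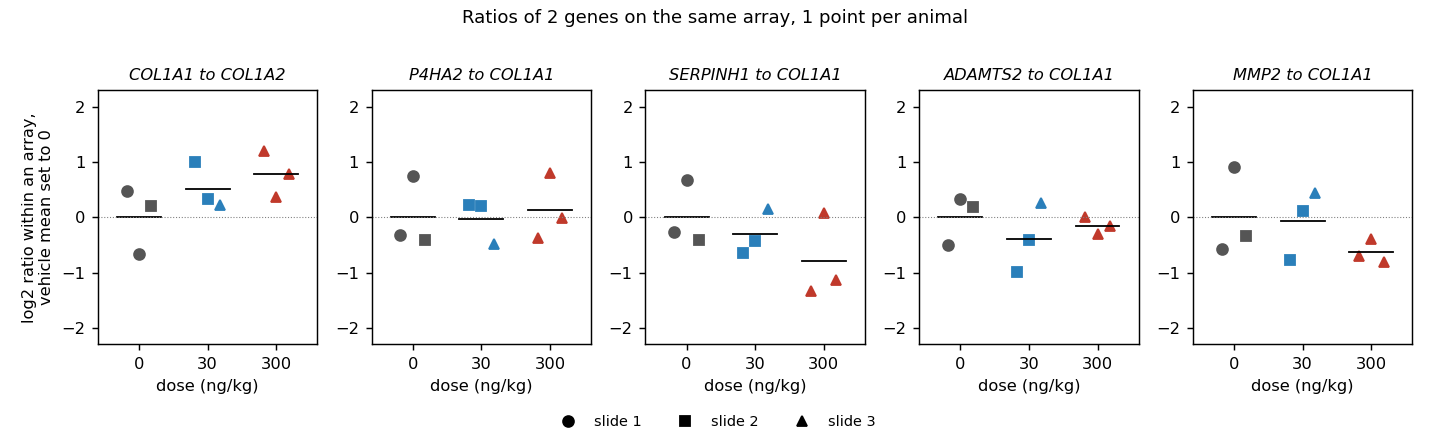
Log2 ratio of 2 genes on the same array, with the mean of the vehicle animals set to 0, against the initial TCDD dose in ng/kg; horizontal lines are means of 3 animals and symbols give the slide. Groups overlap in all 5 panels. The means for SERPINH1 and MMP2 to COL1A1 lie 0.80 and 0.64 lower at 300 ng/kg than in vehicle.

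Within groups, some pairs of the 10 genes varied together and others in opposite directions. Deviations from the group mean, which do not use the differences between groups, were correlated over the 9 arrays for the 45 pairs of genes as a description. All points share the scaling of their array. The median correlation was 0.01 and 23 of 45 were above 0. The highest was 0.74 for COL1A2 with MMP2, and the lowest -0.93 for COL6A2 with MMP2, genes that also had opposite correlations with array brightness. COL1A1 correlated at 0.50 with COL1A2, at 0.63 with ADAMTS2 and at 0.47 with P4HA2, and COL5A2 at -0.80 with P4HA2.

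Among 1146 other named genes, those with deviations most like COL1A1 were MIPEP (0.89), PLCG2 (0.86) and STXBP5 (0.83). COL6A2 was nearest to ENPP7, SCAM-1 and ATP4A (0.98 to 0.99), and P4HA2 to SLC35B1 (0.96), SDF2L1 and RPS6KA2 (both 0.87). HAS2 was nearest to PEX13 (0.92), MGC26717 (0.90) and ANXA3 (0.89). None of the 10 genes was among the 3 nearest to any of these 4. These are the highest of 1146 correlations over 9 arrays for each gene, given as a description with no test. COL6A2 deviations also correlated with array brightness at -0.68.

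Further genes of the collagen pathway went both ways at 300 ng/kg. From a list of 29 genes of collagen maturation, 6 carried a symbol in the authors' table and 5 could be tested: P4HA2, SERPINH1, ADAMTS2, BMP1 and PCOLCE. At an unadjusted p under 0.05, 4 of their 6 probes were higher than vehicle and 2 lower, and 0 had an adjusted p under 0.05 (limma). All 6 come from the authors' table, where 76.5% of tested probes with a symbol differed at this level, against 15.5% of all tested probes. The crosslinking enzyme gene LOX was not well above background on any of the 9 arrays and was not tested.

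BMP1, the protease that cuts the carboxy-terminal propeptide from procollagens, stood lower at 300 ng/kg, opposite to the amino-terminal protease ADAMTS2. It has 2 probes, described as different transcript variants. The brighter probe (A_01_P004163) had a mean of 2.27 ± 0.80 in vehicle (SD, n = 3), 2.35 ± 0.17 at 30 ng/kg and 0.16 ± 1.15 at 300 ng/kg. Its highest 300 ng/kg animal, at 1.09, was below the lowest vehicle animal, at 1.61. The difference from vehicle was -2.11 ± 0.57 (unadjusted p 0.00494, limma adjusted p 0.267), and from 30 ng/kg -2.19 ± 0.57, with -2.16 within slide 3. The dimmer probe (A_01_P013401) gave -1.98 ± 0.71 against vehicle, with overlap, and -2.62 ± 0.71 against 30 ng/kg, without overlap. With array brightness as a covariate the 2 probes gave -1.70 and -0.71 against vehicle. Brightness correlated with the dimmer probe at -0.87 within groups and with the brighter one at -0.36, and its part in the difference was not tested further.

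PCOLCE, whose product enhances the cleavage by BMP1, stood on the other side. It lay between -0.89 and -0.10 in vehicle, between -0.66 and -0.25 at 30 ng/kg and between 0.24 and 1.15 at 300 ng/kg. The difference from vehicle was 1.17 ± 0.30 (fold 2.25, unadjusted p 0.00396, limma adjusted p 0.267) and from 30 ng/kg 1.22 ± 0.30, with 1.33 within slide 3. With array weights it passed against vehicle, at 1.49 (adjusted p 0.0467), beside 198 of all tested probes, while over the other settings the adjusted p reached 0.670.

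Of 21 genes of collagen turnover reported here, MMP2 was the only one named. Of 31 matrix partners 3 were named. LTBP4, a binding protein of latent TGF-beta in elastic fibres, stood at -1.33 ± 0.44 from vehicle at 300 ng/kg, and LTBP2, of the same family, at 1.00 ± 0.31. TGFBI, an adhesion protein that binds collagen, stood at 1.05 ± 0.41. All 3 were without overlap between these groups (limma adjusted p 0.270 to 0.301), as were 81.6% of probes with a symbol and 22.7% of all tested probes. The LTBP4 probe was also among the brightest (percentile 99.1), correlated with array brightness at -0.79 within groups, and gave -0.65 with brightness as a covariate. Without 30 ng/kg replicate 2, LTBP2, TGFBI and the dimmer BMP1 probe passed between 300 and 30 ng/kg, beside 774 of all tested probes. They stood at 1.41, 2.09 and -3.21 (limma adjusted p 0.0412, 0.0326 and 0.0460). With array weights all 6 of these further probes passed (0.0210 to 0.0246), beside 2951 of all tested probes. LTBP2 was dim, at 14.4 to 115 intensity units at 30 ng/kg, where 2 of 3 arrays were well above background. With normexp its difference was -0.38 between the doses and 0.30 between 300 ng/kg and vehicle. At 30 ng/kg none of these pathway genes differed from vehicle at an unadjusted p under 0.05.

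**Figure D4:**
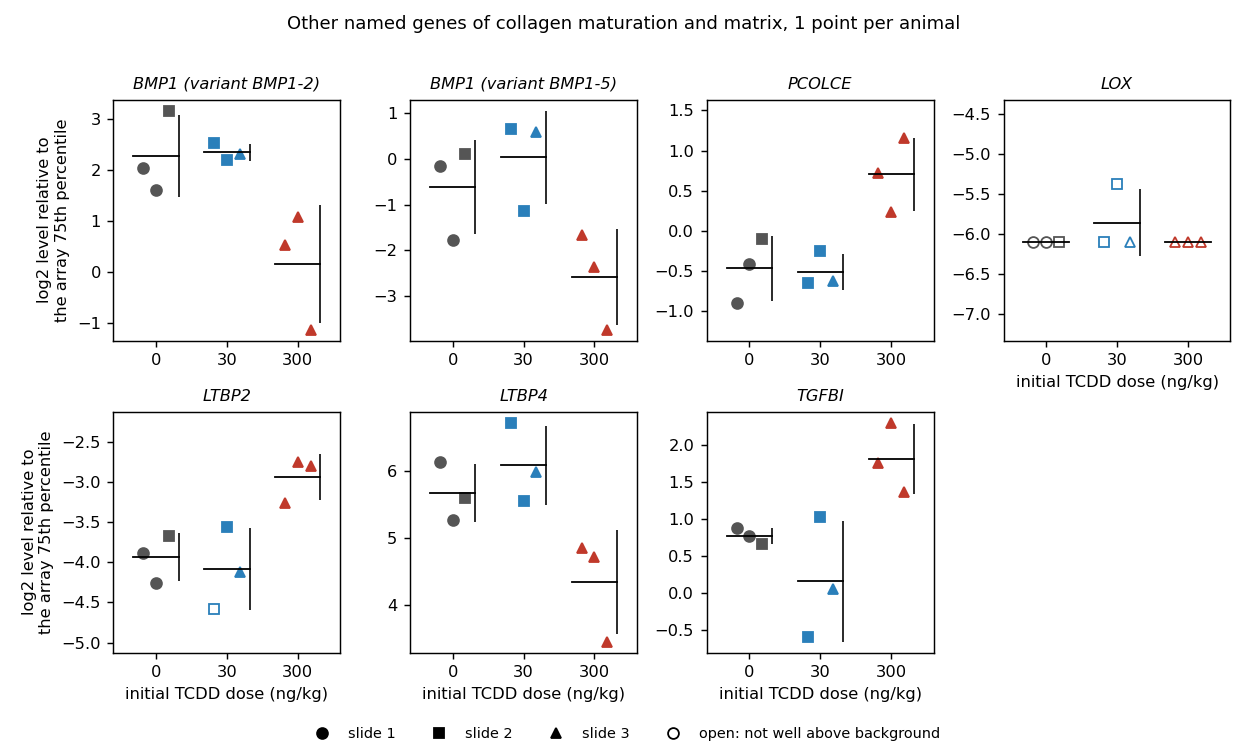
Level on each array (log2, with the array's 75th percentile at 0) of further named genes of collagen maturation and matrix against the initial TCDD dose in ng/kg; lines are means of 3 animals with 1 SD either side, and open symbols were not well above background. Both BMP1 probes and LTBP4 have lower means at 300 ng/kg than in vehicle, PCOLCE, LTBP2 and TGFBI have higher means, and LOX is at background on all arrays.

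Some named markers of cell types differed between groups at an unadjusted p under 0.05, and none had an adjusted p under 0.05 (limma). Of 8 smooth muscle markers 3 were named, and all 3 were lower at 300 ng/kg than in vehicle at an unadjusted p under 0.05: LMOD1 at -0.80 ± 0.28, SGCA at -1.74 ± 0.27 and TPM2 at -0.73 ± 0.32. On 300 ng/kg replicate 2 the SGCA value of -0.80 rests on spots that differed by 3.51 log2 units. A marker could be named only from the authors' table, in which 40.9% of tested probes with a symbol were lower at this level (8.17% of all tested probes). The summed level of the 3 smooth muscle markers, in multiples of the 75th percentile, ran from 224 to 341 in vehicle, 244 to 451 at 30 ng/kg and 117 to 199 at 300 ng/kg. Nearly all of it was TPM2. Before scaling, the TPM2 signal was not lower, at 169441 to 255161 intensity units in vehicle and 191703 to 309146 at 300 ng/kg. What part array brightness had in its scaled difference was not tested. Of 7 immune markers 3 were named (XBP1, CTSS and FCER1A), with 4 probes. XBP1, which is also expressed by secretory cells, stood at 1.39 ± 0.28 from vehicle at 300 ng/kg, without overlap. The FCER1A probe and both CTSS probes were well above background on all 3 arrays only at 300 ng/kg and entered the test through that group, so their direction is no support. In vehicle, the second CTSS probe was well above background on no array and FCER1A on 1. The sum of the 4 probes was 2.28 to 2.60 in vehicle, 2.26 to 4.19 at 30 ng/kg and 5.13 to 7.61 at 300 ng/kg, and nearly all of it was XBP1.

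The sum of the unsaturated probes of 3 of 8 luminal markers was 52.4 to 155 in vehicle, 144 to 163 at 30 ng/kg and 52.6 to 220 at 300 ng/kg, and its genes went opposite ways. TGM4 lay between -4.55 and -2.54 on the log2 scale in vehicle, between -3.61 and -1.08 at 30 ng/kg and at 6.81, 1.42 and 7.41 at 300 ng/kg, where it gave most of the sum in replicates 1 and 3. Its difference from vehicle was 8.87 ± 1.44 (limma adjusted p 0.216). The unsaturated KLK3 probe (A_01_P009838) stood at -1.47 ± 0.59 from vehicle without overlap, and MSMB at -0.73 ± 0.36 with overlap. The other KLK3 probe (A_01_P002788), saturated on arrays of every group, gave -1.18 ± 0.49. Before scaling, its signal ran from 469115 to 627507 intensity units in vehicle and from 333061 to 643681 at 300 ng/kg. A saturated signal is capped, so its scaled difference is no second measure of KLK3.

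The sum of 2 of 6 basal markers was 4.53 to 6.96, 7.72 to 10.3 and 5.96 to 6.35, nearly all of it ITGB4. The ITGB4 difference from vehicle was 0.72 ± 0.24 for the low dose and 0.21 ± 0.24 for the high dose. S100A2 stood at 1.55 ± 0.57 at 300 ng/kg, with overlap, and was well above background on all arrays only in that group. At 30 ng/kg, where COL22A1 and COL5A2 were highest, the endothelial marker PECAM1 (1 of 4 named) stood at 1.31 ± 0.29 from vehicle and the adipocyte marker LPL (1 of 4 named) at 1.52 ± 0.29. LPL was also higher at 300 ng/kg, at 1.24 ± 0.29. The lists of 7 fibroblast, 4 nerve, 4 skeletal muscle and 2 seminal vesicle markers had no named gene. The part of cell makeup in the differences of the collagen genes was not tested.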

How the data were processed

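The authors extracted each array with Agilent Feature Extraction 9.5.1.1, per the file headers. The deposited processed signal is an intensity, background-subtracted for each array on its own; median spot and background signals in the deposited files are intensity values too. The authors' deposited table gives folds as a ratio and supplied gene symbols (1318 of its 1502 probes). Its folds for the 10 genes differed from those computed here by at most 0.14 on the log2 scale over 20 folds. How the authors normalized between arrays is not stated in these sources. Flags for outlier, background, saturation and gain in the deposited files were used to leave out or describe spots. The table also has 9 per-sample flag columns, left unused.

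The 2 spots of a probe were averaged without outlier spots, divided by the 75th percentile of the array and turned into log2 values, with a floor worth 5 units on the dimmest array (log2 -6.10). Probes well above background on all arrays of a group (15160) entered 1 limma 3.58.1 fit (R 4.3.3) with group as the only term, 6 residual and 2.99 prior degrees of freedom, adjusted by Benjamini-Hochberg, 2-sided, threshold 0.05. The fit was tested on simulated data. Figures were drawn with matplotlib 3.10.9. Genome coordinates and probe sequences were not used here.

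All 10 genes are named, with every tested gene of the matrix lists, the named cell markers, and the 3 genes with deviations nearest to COL1A1, COL6A2, P4HA2 and HAS2. The result for 1 listed gene is not reported here. The genes and lists were chosen with earlier results of these data known. Alternatives were normexp, quantile, median and cyclic loess scaling, other filters and floor, slide or replicate number as a block, single slides, array weights, brightness as a covariate, only the compared groups, flagged-background spots left out, and each array left out.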

Additional observations from a re-analysis of the deposited data

How the results depend on the processing

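Cyclic loess, the spots with flagged background and the list medians were added after the data were seen. Over the 10 genes and the further matrix genes, 1061 of 1130 values kept their direction and side of the threshold, 23 came to pass it and 46 turned. Many of these values could not turn. Other filters, the replicate block, only the compared groups, and leaving out an array of the third group do not change a difference. Single slides repeat the differences of slide as a block. No value passed as reported, so none could lose a pass. The tally is thus no measure of robustness. Probes called (0 in each comparison as reported) were 198 for 300 ng/kg against vehicle and 2951 for 300 against 30 ng/kg with array weights, 2 and 6 of them among the 10 genes, HAS2 included. For 300 against 30 ng/kg they were also 3 with median scaling and 2 with slide as a block, and for 30 ng/kg against vehicle 6 with slide as a block. With each array left out, calls ran from 0 to 1 (30 ng/kg against vehicle; 1 without 30 ng/kg replicate 2), 0 to 271 (300 ng/kg against vehicle; 271 without 300 ng/kg replicate 2) and 0 to 774 (300 against 30 ng/kg; 774 without 30 ng/kg replicate 2, 155 without 300 ng/kg replicate 2, 1 without vehicle replicate 1), with 0 to 2 of the 10 genes in the last 2 comparisons. The median correlation of deviations ran from -0.10 to 0.10.

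Samples that share a replicate number were not shown to be paired: 5 of 9 correlations of their deviations were over 0.1, from -0.26 to 0.54. With the replicate block 0, 0 and 1 probes were called, none of the 10 genes.

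Turned values are differences on the log2 scale. With normexp, 30 ng/kg against vehicle: SERPINH1 -0.16, ADAMTS2 0.39, BMP1 -0.13, LTBP2 0.69, PCOLCE 0.026 and the ratio of ADAMTS2 to COL1A1 0.091. With normexp, 300 against 30 ng/kg: COL5A2 0.020, HAS2 -0.79, LTBP2 -0.38 and that ratio -0.55. In 30 ng/kg against vehicle, HAS2 was -0.15 with quantile normalization, and SERPINH1 -0.057, HAS2 -0.040 and BMP1 -0.014 with median scaling (COL5A2 0.039 for 300 against 30). Slide as a block, or slide 2 alone, gave BMP1 -0.80 and -0.36 (its 2 probes). Slide as a block at 300 ng/kg against vehicle gave COL5A2 and the median of chains -0.23 and COL22A1 -0.37. Array weights gave, at 30 ng/kg, COL6A2 0.36, SERPINH1 -0.18, HAS2 -0.0083 and PCOLCE 0.12. Brightness as a covariate gave BMP1 -0.12 and PCOLCE 0.10 at 30 ng/kg and COL22A1 -0.11 at 300 ng/kg. With each array left out at 30 ng/kg, COL1A1 ran from -0.0051 to 0.61, COL6A2 from -0.40 to 0.31, SERPINH1 from -0.10 to 0.17, ADAMTS2 from -0.23 to 0.13, HAS2 from -0.071 to 0.19, BMP1 from -0.25 to 0.52, LTBP2 from -0.41 to 0.10 and PCOLCE from -0.26 to 0.14. COL22A1 ran from -0.44 to 0.72 at 300 ng/kg against vehicle, and COL5A2 from -0.23 to 0.028 for 300 against 30 ng/kg. The cause was not tested.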
